A study of Mus musculus with 12 samples.

Results

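The mitosis and spindle genes described here are 50 genes of G2 phase, the mitotic spindle and chromosome segregation, taken from a written list of symbols. The list was chosen with earlier results of these data known. For each gene the probe set with the highest mean over the arrays stood for it, where it reached a log2 signal of 5 on at least 2 of the 12 arrays. By that rule 49 of the 50 listed genes were measured, among 9893 genes tested in all. Ccnb1 was not analysed here. By role they fall into 7 groups: entry into mitosis (10 measured), the spindle (9), the chromosomal passenger complex (4), the kinetochore and checkpoint (11), anaphase (4), chromosome structure (5) and cytokinesis (6).

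A cell that enters mitosis activates the kinase Cdk1 with its cyclins, builds a spindle of microtubules from its poles, and attaches each chromosome to it through the kinetochore. A checkpoint holds the cell until all chromosomes are attached, after which the anaphase-promoting complex triggers the separation of sister chromatids and the cell divides at the midzone. Most of these genes are transcribed in G2 phase and mitosis and are low in resting cells, and naive T cells are resting cells. Follicular helper T (Tfh) cells are the CD4 T cells that help B cells in follicles and germinal centres.

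The samples were 12 pools of CD4+ cells that had been sorted from S1pr2V/+ mice, which carry a Venus reporter allele at S1pr2, a receptor of germinal centre cells, beside a normal allele. All donors had received CGG, a protein antigen, in CFA, an oil adjuvant, under the skin 10 days before the sort, according to the sample labels, so no group came from mice that were not immunized. The design text of the series also mentions control mice, and which sample they would stand for is not stated. Each pool went on 1 Affymetrix mouse array after amplification of 20 ng of RNA. Venus-high Tfh (Venus-high, CXCR5+, PD1-high, CD44-high; 3 arrays, from 4, 6 and 4 mice) and Venus-low Tfh (the same gate but Venus-low; 3 arrays, from 4, 6 and 4 mice) came from lymph nodes. So did PD1-intermediate Th (CXCR5+, PD1-intermediate, CD44-high; 2 arrays, 4 mice each) and PD1-low Th (CXCR5-low, PD1-low, CD44-high; 2 arrays, from 6 and 4 mice). Naive CD4 T cells (CD44-low, CD62L-high; 2 arrays, 2 mice each) came from spleen. Every gate also left out cells in a Dump channel. The labels give the number of mice in a pool but not their age or sex, nor whether arrays of 1 number came from the same mice, and the reporter reads S1pr2 activity, not a lineage. The p-values measure the spread between these pools.

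Signals are log2 values, on which a difference of 1 is a 2-fold change. The arrays fell into 3 array sets by the spread of their signals: set 1 holds Tfh 1 of both kinds and naive 1, set 2 Tfh 2 of both kinds, PD1-low 1 and naive 2, and set 3 Tfh 3 of both kinds, both PD1-intermediate arrays and PD1-low 2. The 75% quantiles over all probe sets were 8.50 to 8.55, 8.68 to 8.76 and 9.39 to 9.42 in sets 1, 2 and 3. What the sets stand for is not stated in the labels. Arrays of PD1-intermediate Th lie only in set 3, so their comparisons with other groups are also given within set 3. The 4 CD4 T cell markers read were above 13 on average on every array, and Cxcr5 read 13.14 to 14.28 in the 3 CXCR5+ groups against 2.51 to 6.75 in the others. None of the 6 myeloid markers read reached 5 on any array.

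Mitosis and spindle genes were highest in Venus-low Tfh, next in Venus-high Tfh and PD1-intermediate Th, and lowest in PD1-low Th and naive cells. The median log2 level over the 49 genes was 10.45, 10.82 and 12.07 on the 3 Venus-low arrays and 8.13, 9.16 and 9.85 on the 3 Venus-high arrays. It was 10.15 and 9.19 in PD1-intermediate Th, 4.15 and 5.83 in PD1-low Th, and 4.02 and 3.96 in naive cells. The Venus-low arrays lie above all others on this measure, and the PD1-low and naive arrays below all others. Over all genes tested the median was 9.67 to 9.85 on the arrays of sets 1 and 2 and 10.48 to 10.58 on those of set 3. In bulk RNA of sorted pools, fewer cells in mitosis and less RNA of these genes in each cell cannot be told apart. By group means 44 of the 49 genes were highest in Venus-low Tfh, where 8.46% of all genes tested were highest. Top2a, Dlgap5, Cenpa and Pttg1 were highest in PD1-intermediate Th, which lie only in set 3 and where 52.2% of all genes were highest, and Cdc25b was highest in Venus-high Tfh (13.2% of all genes). The lowest mean was in naive cells for 37 genes (46% of all genes), in PD1-low Th for 11 (9.49%) and in Venus-low Tfh for Pttg1 (18.9%).

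The number of the genes that reached 5 was also highest on the Venus-low arrays. It was 48, 48 and 49 of 49 on the Venus-low arrays, 40, 45 and 46 on the Venus-high arrays, and 46 on both PD1-intermediate arrays. It was 19 and 31 in PD1-low Th and 21 and 18 in naive cells. Of all genes tested, 86.8% to 93.7% reached 5 on the single arrays. That share was 89.8% to 93.7% on the Venus-low, 89.3% to 92.7% on the Venus-high and 92.3% to 92.6% on the PD1-intermediate arrays. A signal under 5 is close to the background of these arrays, so a fold against a group that lies under 5 on every array is given as a lower bound, against a level of 5.

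**Figure D1:**
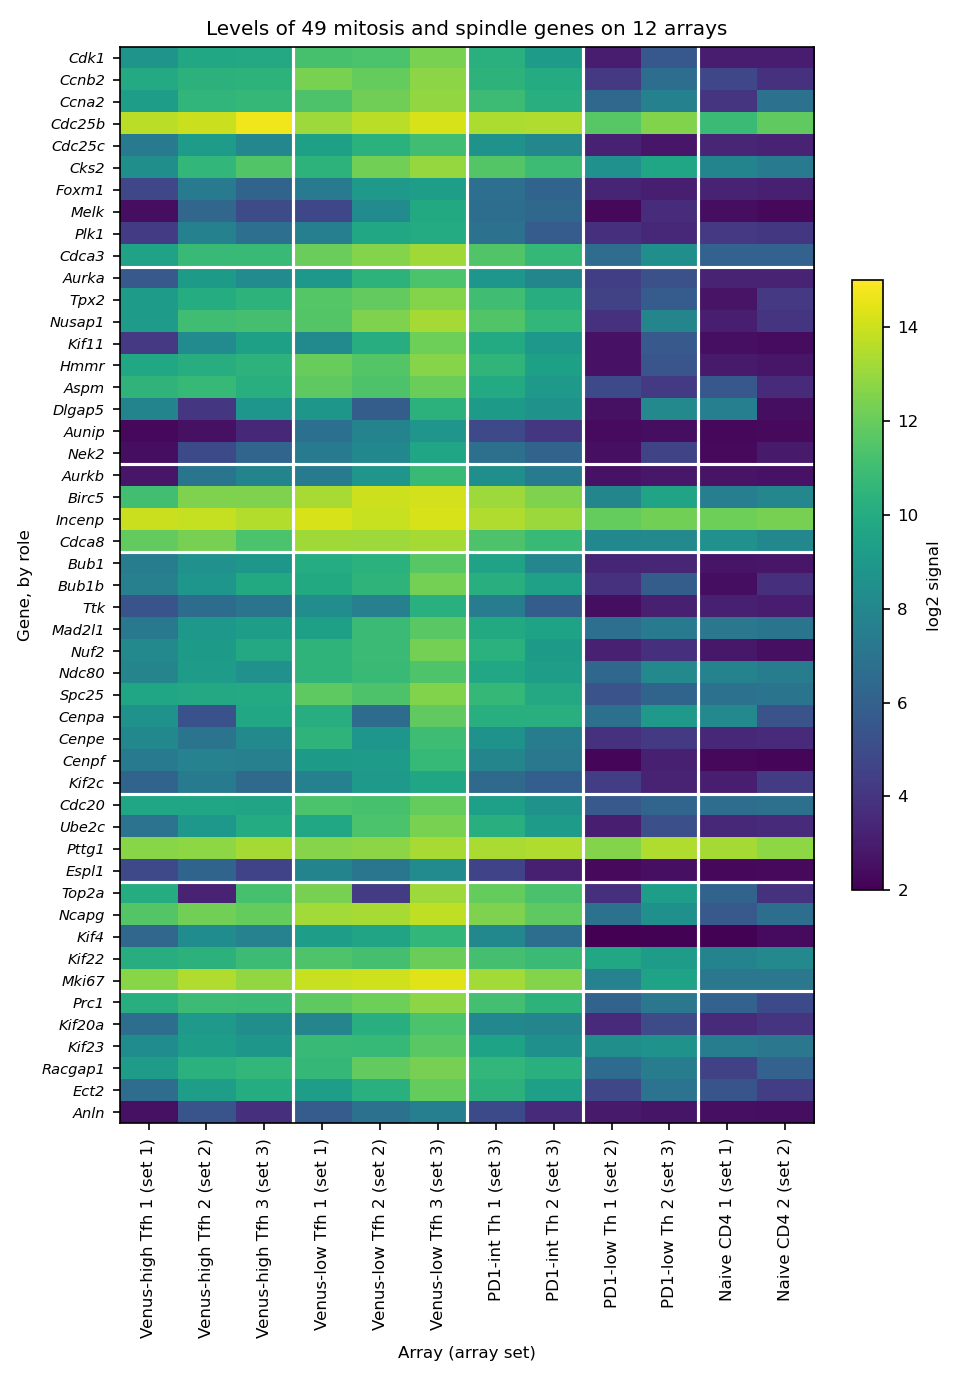
Log2 signal of the 49 measured mitosis and spindle genes (rows, by role, with white lines between roles) on the 12 arrays (columns, with white lines between groups; the array set is in brackets). The 3 Venus-low columns are brightest in most rows, the PD1-low and naive columns are dark, and Top2a, Dlgap5 and Cenpa are darker on the Tfh arrays of set 2 than on the other Tfh arrays.

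The first comparison asks how the reporter-high and reporter-low cells of the Tfh gate differ. Of the 49 genes, 47 were lower in Venus-high Tfh in all 3 pairs of arrays with the same number, and 27.6% of all genes tested were lower in all 3 pairs. By more than 1 log2 unit in all 3 pairs, 41 were lower, with 3.53% of all genes. On 34 genes the 3 Venus-high arrays all read below the 3 Venus-low arrays (5.43% of all genes). The median difference over the 49 genes was -2.08, and over all genes tested it was 0.016. Within the 3 pairs the median was -2.25, -1.52 and -2.42. In the limma fit of all 12 arrays, which leaves the spread between the array sets in the error, 4 genes passed an adjusted p of 0.05 as lower in Venus-high Tfh, Aunip, Cdc20, Kif23 and Spc25 (0.879% of all genes passed as lower, 1.31% in either direction), and 38 had an unadjusted p under 0.05 as lower (5.48% of all genes). With the replicate number as a block over the 6 Tfh arrays, 34 passed as lower and 0 as higher (6.05% and 4.06% of all genes). The fit with the array set as a term over the 12 arrays gave 37 as lower and 0 as higher (9.42% and 7.47% of all genes). Tfh arrays of 1 number share an array set, so for them the block and the array set cannot be told apart.

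Aunip, whose protein binds the kinase Aurora A at centrosomes, read 2.27, 2.60 and 3.52 in Venus-high Tfh and 6.73, 7.81 and 8.78 in Venus-low Tfh, and 4.88 and 4.05 in PD1-intermediate Th, 2.37 and 2.48 in PD1-low Th and 2.28 and 2.35 in naive cells. Only the 3 Venus-low arrays reached 5, so Aunip met the filter only through the group where it is high. Its test therefore cannot be separated from the filter. The difference, Venus-high minus Venus-low, was -4.98 ± 0.52 (SE), with an adjusted p of 0.00389, and Venus-high Tfh were at least 6.84-fold lower. Cdc20, which activates the anaphase-promoting complex, read 9.62, 9.72 and 9.58 in Venus-high Tfh and 11.32, 11.24 and 11.95 in Venus-low Tfh. All 3 Venus-high arrays lay under 10 and all 3 Venus-low arrays above 11, and the difference was -1.86 ± 0.28 (SE), 3.63-fold on the linear scale (adjusted p = 0.0168).

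Kif23, a motor of the spindle midzone, read 8.32, 9.29 and 8.90 in Venus-high Tfh and 10.81, 10.72 and 11.66 in Venus-low Tfh. Its difference was -2.23 ± 0.38 (SE) (adjusted p = 0.0289), again without overlap. Spc25, a subunit of the Ndc80 complex that binds microtubules at the kinetochore, read 9.67, 9.86 and 9.97 in Venus-high Tfh and 11.78, 11.36 and 12.53 in Venus-low Tfh. All 3 Venus-high arrays lay under 10 and all 3 Venus-low arrays above 11, a difference of -2.06 ± 0.37 (SE) (adjusted p = 0.0333). Aunip passed with each of the 12 arrays left out in turn. The count of 4 fell to 1 without Venus-high 1, Venus-high 3, Venus-low 2 or Venus-low 3, and to 2 without Venus-high 2, naive 1 or naive 2. It was 0 with only the 6 Tfh arrays and no block, and 0 without array set 2.

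These 4 genes and Cdk1 and Cdc25b are shown by the 150 bases before their transcription start, because the first 4 passed the test, Cdk1 is the kinase at the centre of the list, and Cdc25b went the other way. The sequences are RefSeq promoters of GRCm38.p6, 5′ to 3′ on the gene's strand, and end at the base before the start. Capitals mark CCAAT (or its reverse, ATTGG) and TTTGAA or TTCGAA (on either strand), the letters of the CCAAT box and of the cell cycle homology region (CHR), which are known from promoters of G2 and mitosis genes.
Aunip, chr4:134510849-134510998, plus strand: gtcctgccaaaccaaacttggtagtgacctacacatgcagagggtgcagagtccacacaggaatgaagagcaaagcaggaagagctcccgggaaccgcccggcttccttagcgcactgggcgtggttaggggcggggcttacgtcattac
Cdc20, chr4:118437344-118437493, minus strand: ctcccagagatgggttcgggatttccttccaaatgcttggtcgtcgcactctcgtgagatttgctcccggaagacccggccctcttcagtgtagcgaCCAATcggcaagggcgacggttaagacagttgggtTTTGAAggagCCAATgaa
Kif23, chr9:61946800-61946949, minus strand: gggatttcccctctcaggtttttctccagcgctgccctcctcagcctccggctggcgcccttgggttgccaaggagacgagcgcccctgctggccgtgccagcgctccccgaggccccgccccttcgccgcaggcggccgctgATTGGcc
Spc25, chr2:69206214-69206363, minus strand: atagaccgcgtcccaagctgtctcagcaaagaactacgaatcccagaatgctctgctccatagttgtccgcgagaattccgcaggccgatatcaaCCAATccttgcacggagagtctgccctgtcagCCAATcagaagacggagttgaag
Cdk1, chr10:69352913-69353062, minus strand: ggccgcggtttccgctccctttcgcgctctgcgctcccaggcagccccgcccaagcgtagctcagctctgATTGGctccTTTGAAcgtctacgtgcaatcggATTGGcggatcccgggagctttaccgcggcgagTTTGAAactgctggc
Cdc25b, chr2:131186798-131186947, plus strand: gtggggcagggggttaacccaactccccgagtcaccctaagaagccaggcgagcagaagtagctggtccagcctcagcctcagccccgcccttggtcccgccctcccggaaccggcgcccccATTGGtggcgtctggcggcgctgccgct
Cdc20 holds CCAAT at 53 to 49 and at 8 to 4 bases before the start, and TTTGAA at 18 to 13. Cdk1 holds ATTGG at 80 to 76 and 48 to 44 and TTTGAA at 71 to 66 and 15 to 10. Aunip holds neither. Of the 50 genes 42 have an entry in the promoter table, the unmeasured Ccnb1 included. In the 250 bases before any listed start, 32 (76.2%) hold a CCAAT box, against 37.5% of all 27025 genes of the table and 41.1% of the 8095 tested genes found in it. CHR letters stand in 14 (33.3%), against 19.6% and 14.6%, and both motifs in 13 (31%), against 7% and 5.62%. Sites of the 2 motifs were counted separately. A match is a description of these letters and not a bound site.

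Among the genes of entry into mitosis, 9 of 10 were lower in Venus-high Tfh in all 3 pairs, and with the replicate block 7 passed as lower (Cdk1, Ccnb2, Ccna2, Cks2, Foxm1, Plk1 and Cdca3). Cdk1 read 8.72, 9.74 and 9.85 in Venus-high Tfh and 11.24, 11.30 and 12.37 in Venus-low Tfh, without overlap. The 3 pair differences were -2.51, -1.56 and -2.51, and the difference over the groups was -2.19 ± 0.66 (SE), 4.57-fold, with an adjusted p of 0.212 in the fit of 12 arrays and 0.026 with the block. Plk1, a kinase of mitotic entry and spindle assembly, read 4.33, 7.72 and 6.74 in Venus-high Tfh and 7.64, 9.78 and 10.00 in Venus-low Tfh. Venus-high 2 read just above Venus-low 1, so the groups overlapped, while each pair was lower by at least 2 log2 units (-3.30, -2.06 and -3.26; adjusted p = 0.231, with the block 0.0251). Foxm1, a transcription factor of G2 genes, had pair differences of -2.62, -1.72 and -3.04, and cyclin B2 (Ccnb2) of -2.40, -1.58 and -2.37. Melk had pair differences of -2.33, -1.98 and -4.86 and did not pass under either fit (adjusted p = 0.488, with the block 0.0686).

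Cdc25b, a phosphatase that activates Cdk1, was the only gene of the list that was higher in Venus-high Tfh in all 3 pairs, by 0.56, 0.31 and 0.52 (27.3% of all genes were higher in all 3 pairs). It read 13.65, 13.93 and 14.74 in Venus-high Tfh, 13.09, 13.63 and 14.22 in Venus-low Tfh, 13.42 and 13.47 in PD1-intermediate Th, 11.64 and 12.52 in PD1-low Th and 10.86 and 11.81 in naive cells, so it was also well above 5 in cells where most of the list was not. The difference was 0.46 ± 0.43 (SE) and did not pass (adjusted p = 1, with the block 0.0686). Cdc25c, the other phosphatase of the list, was lower in each pair, with differences of -2.06, -1.12 and -2.99 (adjusted p = 0.132, with the block 0.0574).

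The 9 spindle genes were all lower in Venus-high Tfh in all 3 pairs, with a median difference of -2.12, and 8 passed with the block, all but Aspm. Tpx2, which activates Aurora A on the spindle, read 9.16, 10.07 and 10.42 in Venus-high Tfh and 11.57, 11.88 and 12.57 in Venus-low Tfh. The groups did not overlap, and its difference was -2.12 ± 0.55 (SE) (adjusted p = 0.137, with the block 0.0164). Aurka itself had pair differences of -3.28, -1.36 and -3.06 (adjusted p = 0.306, with the block 0.0486). Nek2, a kinase of centrosome separation, was under 5 on 2 of the 3 Venus-high arrays. Its difference was -3.79 ± 0.99 (SE) and did not pass in the fit of 12 arrays (adjusted p = 0.145, with the block 0.0251). The motor Kif11 had pair differences of -3.99, -1.84 and -2.73, Hmmr of -2.17, -1.41 and -2.25, and Nusap1 of -2.37, -1.43 and -2.06. Aspm, a protein of the spindle poles, had the smallest difference of this group, -1.31 ± 0.50 (SE) (with the block adjusted p = 0.0658).

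The 4 genes of the chromosomal passenger complex, which corrects faulty attachments, were lower in all 3 pairs, and only Birc5 passed with the block. Aurkb, its kinase, read 2.80, 7.03 and 7.85 in Venus-high Tfh and 7.40, 8.80 and 10.81 in Venus-low Tfh. Venus-high 1 lay under 5, Venus-high 3 lay above Venus-low 1, and the groups overlapped, with a difference of -3.11 ± 1.29 (SE) that did not pass (adjusted p = 0.454, with the block 0.0565). Birc5 (survivin) had pair differences of -2.21, -1.52 and -1.65 and passed with the block (adjusted p = 0.024). Cdca8 (borealin) read 11.88, 12.34 and 11.32 in Venus-high Tfh and 13.13, 13.08 and 13.24 in Venus-low Tfh, with no overlap (difference -1.30 ± 0.30 (SE), adjusted p = 0.0926, with the block 0.0598). Incenp, the scaffold, had the smallest negative difference of the whole list, -0.33 ± 0.22 (SE), with pairs of -0.23, -0.046 and -0.71, and did not pass (with the block adjusted p = 0.255).

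All 11 kinetochore and checkpoint genes were lower in Venus-high Tfh by more than 1 log2 unit in all 3 pairs, with differences of -2.45 to -1.63. With the block 8 passed (Bub1, Bub1b, Mad2l1, Nuf2, Ndc80, Spc25, Cenpa and Cenpe). Bub1, a kinase of the spindle checkpoint, read 7.44, 8.58 and 8.89 in Venus-high Tfh and 10.05, 10.28 and 11.61 in Venus-low Tfh. No Venus-high array reached 9 and every Venus-low array was above 10, a difference of -2.34 ± 0.55 (SE) (adjusted p = 0.102, with the block 0.0251). The checkpoint protein Mad2l1 had pair differences of -2.14, -1.92 and -2.44 (with the block adjusted p = 0.0154). The 3 subunits of the Ndc80 complex on the list had differences close to each other, -2.17 for Nuf2, -2.35 for Ndc80 and -2.06 for Spc25. The genes that missed the threshold with the block, Ttk, Cenpf and Kif2c, had adjusted p-values of 0.0633, 0.0505 and 0.054.

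Of the 4 anaphase genes, Cdc20, Ube2c and Espl1 were lower in all 3 pairs and Pttg1 was not. Ube2c, an enzyme that works with the anaphase-promoting complex, read 6.98, 8.93 and 9.99 in Venus-high Tfh and 9.78, 11.31 and 12.41 in Venus-low Tfh. Its groups overlapped, but its pairs were close, -2.80, -2.39 and -2.42, and it passed with the block (adjusted p = 0.0148) and not without (adjusted p = 0.356). Espl1 (separase, which cuts the ring that holds sister chromatids) read 4.84, 6.17 and 4.63 in Venus-high Tfh and 7.84, 7.10 and 8.29 in Venus-low Tfh, with no overlap and a difference of -2.53 ± 0.52 (SE) (adjusted p = 0.0617, with the block 0.0805). Pttg1 (securin, which keeps separase inactive) read 12.71, 12.79 and 13.26 in Venus-high Tfh, 12.63, 12.76 and 13.32 in Venus-low Tfh, 13.37 and 13.45 in PD1-intermediate Th, 12.58 and 13.44 in PD1-low Th and 13.22 and 12.77 in naive cells, a range of under 1 over all arrays. Its pair differences were 0.077, 0.039 and -0.057. The 2 other kept probe sets of Pttg1 went in opposite directions within the pairs, by 0.18, 0.33 and 1.13 in 1 and -0.54, -0.81 and -0.10 in the other.

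The 5 genes of chromosome structure and the 6 of cytokinesis were all lower in Venus-high Tfh in all 3 pairs. Mki67, the Ki-67 antigen of dividing cells, read 12.70, 13.43 and 12.90 in Venus-high Tfh and 13.92, 14.06 and 14.39 in Venus-low Tfh. The groups did not overlap, and the difference was -1.11 ± 0.43 (SE), the smallest of the chromosome structure genes (adjusted p = 0.407, with the block 0.0519). The condensin subunit Ncapg and the chromosome motors Kif4 and Kif22 passed with the block, with pair differences of -1.69, -1.09 and -1.83 for Ncapg, -2.96, -1.26 and -2.85 for Kif4 and -1.33, -0.81 and -1.21 for Kif22. Prc1, which bundles the midzone microtubules, Kif23, its partner Racgap1 and the cleavage furrow protein Anln passed with the block. Anln read 2.56, 5.37 and 3.75 in Venus-high Tfh and 5.81, 6.92 and 7.59 in Venus-low Tfh. Outside Venus-low Tfh it reached 5 only on Venus-high 2, so it met the filter through the Venus-low arrays. Of the cytokinesis genes that passed with the block, Racgap1 had the most even pairs on its chosen probe set, -1.48, -1.60 and -1.73. The other kept probe sets of Racgap1 were uneven. They gave pairs of -0.024, -1.86 and 0.0098, and of -1.56, -0.0057 and -2.07. Kif20a and Ect2 did not pass (with the block adjusted p = 0.0807 and 0.0519).

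**Figure D2:**
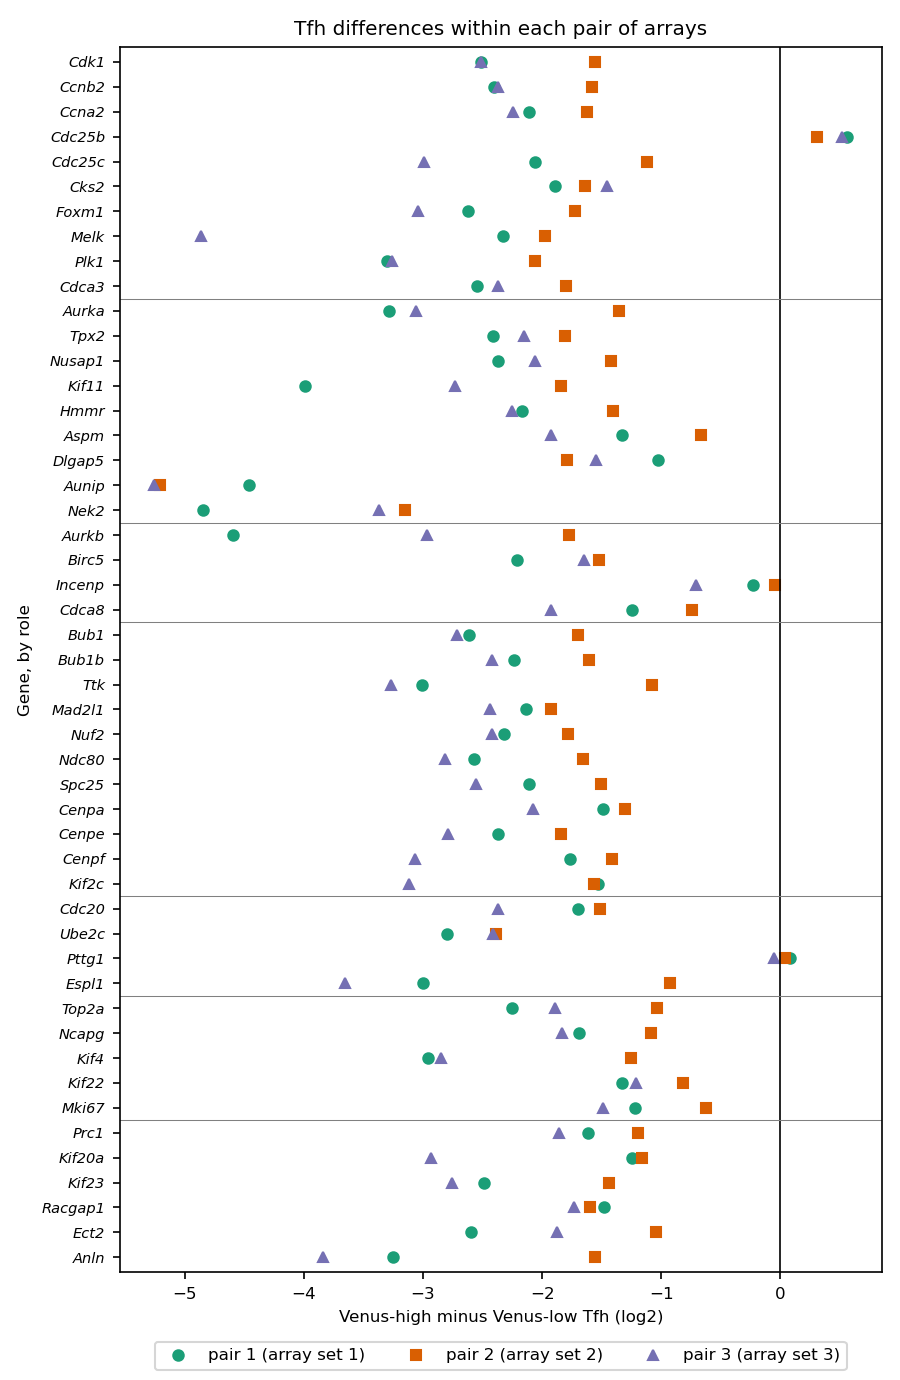
Venus-high minus Venus-low Tfh difference (log2) of each of the 49 genes within the 3 pairs of arrays, by role; each symbol is 1 pair. Nearly all symbols lie left of 0, those of pair 2 are mostly nearest to it, Aunip, under 5 on all Venus-high arrays, lies farthest left in pairs 2 and 3, and Cdc25b alone lies right of 0 in all 3 pairs.

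Markers of other cells were read on the same arrays. Of the 7 B cell and germinal centre B cell markers read, 3 reached 5 on a Venus-high array (Pax5, Cd22 and Mef2b) and 3 on a Venus-low array (Cd79b, Pax5 and Cd22), and Cd79a, Ms4a1 and Fcer2a reached 5 on no array. The summed log2 level of the 7 markers was 31.6 to 35.7 in Venus-high and 27.3 to 32.1 in Venus-low Tfh. Pax5, which is part of these sums, reached 5 only on the 4 arrays of set 2. It read 5.67 on Venus-high 2, 5.96 on Venus-low 2, 5.68 on PD1-low 1 and 5.69 on naive 2. On the arrays of sets 1 and 3 Pax5 read 2.0 to 2.1. All 4 plasma cell markers read reached 5 on some array of Venus-high and of Venus-low Tfh, but not all on every array. It was 3 of them in PD1-intermediate Th and 2 in PD1-low Th and in naive cells. Prdm1 read 2.91, 4.21 and 5.21 in Venus-high Tfh and 4.01, 7.01 and 8.61 in Venus-low Tfh. Jchain read 4.13, 7.83 and 7.43 in Venus-high Tfh and 4.42, 4.98 and 8.33 in Venus-low Tfh. The sums of the plasma cell markers were 25.5 to 31.8 in Venus-high and 27.3 to 36.7 in Venus-low Tfh. Naive T cell markers had sums of 23.0 to 29.0 in Venus-high, 31.9 to 37.8 in Venus-low Tfh, 36.6 to 42.2 in PD1-intermediate Th and 54.4 to 55.9 in PD1-low Th and naive cells. Of 5 CD8 and NK cell markers read only Gzma reached 5 in Tfh arrays, with sums of 17.0 to 17.9 in Venus-high and 18.9 to 21.1 in Venus-low Tfh. The part of these other genes in the differences of the mitosis genes was not tested.

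Some probe sets of the list were out of line on the 4 arrays of set 2. A probe set was called displaced where its set 2 effect differed from both other sets by more than 3 log2 units in 1 direction, and 3315 of the 45101 probe sets were, against 542 for set 1 and 234 for set 3. Among the 49 chosen probe sets, those of Top2a and Dlgap5 were displaced, both downward. Of the kept probe sets of the list that were not chosen, 8 were displaced in set 2 as well. They belong to Top2a, Dlgap5, Hmmr, Incenp, Cenpa and Racgap1. Top2a, the enzyme that untangles sister chromatids, read 10.07, 3.24 and 11.23 in Venus-high Tfh, 12.32, 4.28 and 13.12 in Venus-low Tfh, 11.94 and 11.28 in PD1-intermediate Th, 3.81 and 9.22 in PD1-low Th and 6.15 and 3.86 in naive cells, so that the 4 arrays of set 2 (Venus-high 2, Venus-low 2, PD1-low 1 and naive 2) all lay under 5. Its other kept probe set read 7.33, 11.37 and 3.32 in Venus-high and 7.25, 12.60 and 3.97 in Venus-low Tfh, high on the set 2 arrays. Within set 2 it gave a pair difference of -1.23, against -1.04 for the chosen one, whose pairs in sets 1 and 3 were -2.25 and -1.89. Over the groups Top2a had a difference of -1.73 ± 2.81 (SE) (adjusted p = 1), which turned to 0.74 without Venus-high 2, and with the block it passed (adjusted p = 0.0423).

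Dlgap5, a microtubule protein of the spindle, read 7.85, 4.05 and 8.81 in Venus-high Tfh and 8.88, 5.84 and 10.36 in Venus-low Tfh, with the second array of each group lowest. Its pair differences were -1.02, -1.80 and -1.55, and its other kept probe set gave -1.48, -0.75 and -2.84. Cenpa, the histone H3 variant of centromeres, was also lowest on set 2, at 8.62, 5.29 and 9.76 in Venus-high Tfh and 10.11, 6.60 and 11.84 in Venus-low Tfh. Its chosen probe set was under the displacement threshold, with pairs of -1.49, -1.30 and -2.08. Another kept probe set of Cenpa was displaced upward in set 2. It read 4.65, 9.52 and 2.20 in Venus-high Tfh and 4.59, 10.85 and 5.45 in Venus-low Tfh. Of the 88 kept probe sets of the list 39 were not the chosen one of their gene, and 34 of these were lower in Venus-high Tfh in all 3 pairs, 1 was higher (a probe set of Pttg1) and 4 were mixed.

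**Figure D3:**
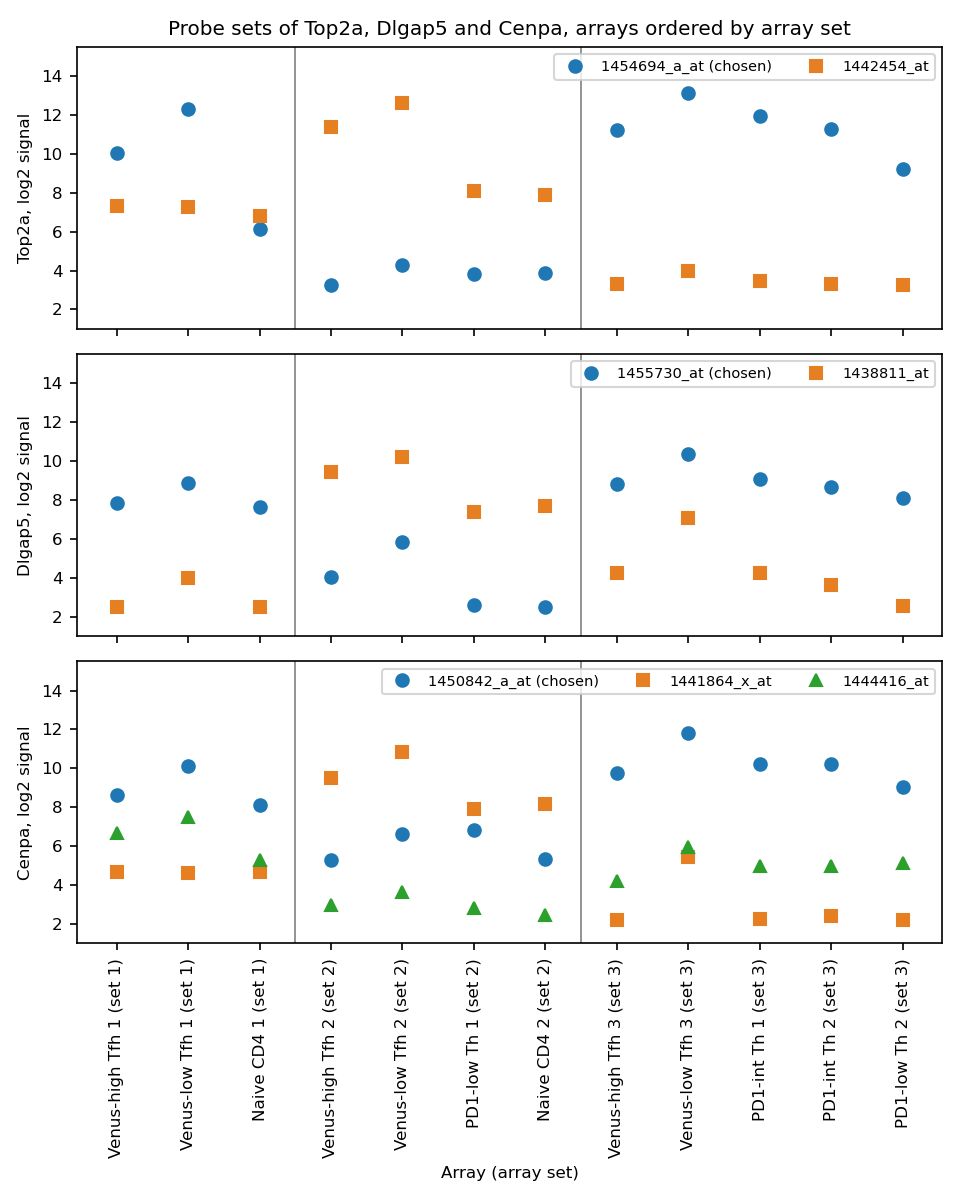
Log2 signal of the kept probe sets of Top2a, Dlgap5 and Cenpa on the 12 arrays, ordered by array set (grey lines part sets 1, 2 and 3). On the 4 arrays of set 2 the chosen probe set (circles) of Top2a and Dlgap5 drops and the other (squares) rises, while both keep Venus-high below Venus-low within that set.

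The second comparison sets Venus-low Tfh against the CXCR5+ cells below their PD1 gate, and it shares the Venus-low arrays with the first. All genes tested had a median difference of -0.40 here, and -0.0090 with the array set term. The 49 genes had a median of 1.55, and 2.57 within set 3, where the Venus-low array was compared with the mean of both PD1-intermediate arrays. Within set 3, 48 of the 49 were higher in Venus-low Tfh (48.9% of all genes), and 46 by more than 1 log2 unit (7.75%). On 35 genes the 3 Venus-low arrays lay above both PD1-intermediate arrays (5.86% of all genes). In the fit of 12 arrays Cdc20, Espl1 and Cdca8 passed as higher and no gene of the list as lower (0.354% of all genes passed as higher), with 27 higher at an unadjusted p under 0.05 (2.9% of all genes). A term for the array set gave 23, all higher (3.97% of all genes as higher).

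Cdc20 read 9.33 and 8.67 in PD1-intermediate Th, under every Venus-low array, a difference of 2.50 ± 0.31 (SE), 5.66-fold (adjusted p = 0.0173). Espl1 read 4.61 and 3.14 in PD1-intermediate Th, 2.31 and 2.53 in PD1-low Th and 2.29 and 2.33 in naive cells, and both PD1-intermediate arrays lie under 5. Outside Venus-low Tfh it reached 5 only on Venus-high 2, so it met the filter through the Venus-low arrays. Venus-low Tfh were at least 6.69-fold higher (difference 3.86 ± 0.58 (SE), adjusted p = 0.0349). Cdca8 read 11.35 and 10.73 in PD1-intermediate Th, 8.05 and 8.10 in PD1-low Th and 8.55 and 8.05 in naive cells, and Venus-low Tfh differed from PD1-intermediate Th by 2.11 ± 0.33 (SE) (adjusted p = 0.035). The count of 3 fell to 0 without Venus-low 3, PD1-intermediate 1 or PD1-intermediate 2, and to 1 without Venus-high 1, Venus-low 2, or any 1 of the PD1-low and naive arrays. It was 0 with only these 2 groups in the fit, and 0 without array set 2.

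The genes that passed with the array set term came from every role group. They were 5 of the 10 entry genes (Cdk1, Ccnb2, Cdc25b, Plk1 and Cdca3), 4 of the 9 spindle genes (Tpx2, Hmmr, Aunip and Nek2), and Cdca8 of the passenger complex. They were 6 of the 11 kinetochore genes (Bub1, Bub1b, Nuf2, Spc25, Cenpf and Kif2c), all anaphase genes but Pttg1, Kif4, and 3 of the 6 cytokinesis genes (Kif20a, Kif23 and Racgap1). Aunip met the filter only through the Venus-low arrays. It read 4.88 and 4.05 in PD1-intermediate Th, both under 5, and Venus-low Tfh were at least 6.84-fold higher. It passed with the term (adjusted p = 0.00862) and missed the threshold without it (adjusted p = 0.0546). Plk1 read 6.84 and 5.79, under every Venus-low array, with 3.42 ± 0.77 (SE) with the term (adjusted p = 0.0492). Top2a, Dlgap5 and Cenpa had negative differences over the groups, -1.70, -0.51 and -0.70, none of which passed, and within set 3 they were higher in Venus-low Tfh by 1.51, 1.49 and 1.62. Pttg1 was the 1 gene lower in Venus-low Tfh within set 3, with a difference of -0.089.

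Venus-high Tfh and PD1-intermediate Th, the middle groups in the order of levels, did not differ on any gene of the list past the threshold (2.66% of all genes passed in either direction). By an unadjusted p under 0.05, 2 were higher in Venus-high Tfh (Cdca8 and Espl1, with 3.7% of all genes) and 1 was lower (Aunip, with 9.16%). Aunip was under 5, close to the background, on every array of both groups. Espl1 reached 5 only on Venus-high 2 (6.17) of these arrays. The median difference over the 49 genes was -0.40, against -0.42 over all genes tested, and within set 3 it was 0.089. Within set 3, 26 genes were higher and 23 lower in Venus-high Tfh (48% and 51.1% of all genes). Cdk1 read 8.72, 9.74 and 9.85 in Venus-high Tfh and 10.23 and 9.18 in PD1-intermediate Th, which overlap, with a difference of -0.27 ± 0.74 (SE). Mki67 overlapped as well, at 12.70, 13.43 and 12.90 against 13.20 and 12.61. Cdc25b alone passed with the array set term, as higher in Venus-high Tfh by 1.32 ± 0.17 (SE) (adjusted p = 0.00495, with 6.09% of all genes passing as higher). A p that misses the threshold does not show that these groups are alike, since the median SE of the 49 differences was 0.66.

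PD1-intermediate and PD1-low Th differ by the CXCR5 and PD1 gates. All 49 genes had higher means in PD1-intermediate Th, and so did 7287 of the 9893 genes tested. On 47 genes both PD1-intermediate arrays lay above both PD1-low arrays (41.2% of all genes), and Kif23 and Pttg1 overlapped. The median difference was 3.73 over the list and 0.29 over all genes tested. Within set 3, where both PD1-intermediate arrays were compared with PD1-low 2, the median was 3.03, 48 genes were higher (52% of all genes) and 45 by more than 1 log2 unit (8.34%). In the fit of 12 arrays 24 genes passed, all higher in PD1-intermediate Th (3.07% of all genes passed as higher), and 41 were higher at an unadjusted p under 0.05 (9.34%). The array set term gave 37, all higher (8.09% of all genes as higher). The count of 24 fell to 13 without PD1-intermediate 1, to 16 without PD1-low 1 and to 17 without PD1-intermediate 2. It was 1 with only these 2 groups in the fit, and 1 without array set 2, which leaves 1 PD1-low array.

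Nuf2, of the Ndc80 complex, read 8.13, 9.10 and 9.86 in Venus-high Tfh, 10.45, 10.88 and 12.28 in Venus-low Tfh, 10.29 and 9.10 in PD1-intermediate Th, 3.18 and 3.83 in PD1-low Th and 2.86 and 2.53 in naive cells, and both PD1-low and both naive arrays lay under 5. The difference, PD1-intermediate minus PD1-low, was 6.20 ± 0.73 (SE), at least 26.0-fold (adjusted p = 0.00215). Hmmr, which binds spindle microtubules, read 9.80, 10.10 and 10.39 in Venus-high Tfh, 11.97, 11.50 and 12.64 in Venus-low Tfh, 10.51 and 9.38 in PD1-intermediate Th, 2.62 and 5.44 in PD1-low Th and 2.93 and 2.79 in naive cells. PD1-low 2 alone of the last 4 arrays reached 5, and the difference was 5.92 ± 0.81 (SE) (adjusted p = 0.00409). Ube2c read 10.17 and 9.19 in PD1-intermediate Th, 3.07 and 5.20 in PD1-low Th and 3.43 and 3.53 in naive cells, a difference of 5.55 ± 1.14 (SE) (adjusted p = 0.0298).

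Cdk1 read 10.23 and 9.18 in PD1-intermediate Th, 3.01 and 5.56 in PD1-low Th and 3.04 and 3.02 in naive cells. PD1-low 2 alone of these last 4 arrays reached 5, and the difference was 5.42 ± 0.81 (SE) (adjusted p = 0.00649). Tpx2 read 11.01 and 10.08 in PD1-intermediate Th, 4.55 and 5.76 in PD1-low Th and 2.70 and 4.15 in naive cells, a difference of 5.39 ± 0.67 (SE) (adjusted p = 0.00269). Bub1 read 9.48 and 8.03 in PD1-intermediate Th, 3.36 and 3.39 in PD1-low Th and 2.73 and 2.79 in naive cells, with all PD1-low and naive arrays under 5 and a difference of 5.38 ± 0.67 (SE), at least 13.5-fold (adjusted p = 0.00279). Mki67 read 13.20 and 12.61 in PD1-intermediate Th, 7.77 and 9.55 in PD1-low Th and 7.15 and 7.15 in naive cells, so it stayed above 5 in the cells with the lowest levels of the list (difference 4.24 ± 0.53 (SE), adjusted p = 0.00279).

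The genes that passed were 4 of 10 in entry into mitosis (Cdk1, Ccnb2, Cdc25c and Cdca3), 3 of 9 in the spindle (Tpx2, Hmmr and Aspm), and Birc5, Incenp and Cdca8 of the passenger complex. They were 7 of 11 in the kinetochore and checkpoint (Bub1, Bub1b, Ttk, Nuf2, Spc25, Cenpe and Cenpf), Cdc20 and Ube2c in anaphase, Ncapg, Kif4 and Mki67 in chromosome structure, and Prc1 and Racgap1 in cytokinesis. Incenp passed with the smallest difference of them, 1.18 ± 0.27 (SE) (adjusted p = 0.0466). Aurkb read 8.48 and 7.32 in PD1-intermediate Th, 2.62 and 2.82 in PD1-low Th and 2.69 and 2.63 in naive cells and was under 5 in all PD1-low and naive arrays, but did not pass (difference 5.18 ± 1.58 (SE), adjusted p = 0.146), nor did Plk1, at 6.84 and 5.79 in PD1-intermediate Th, 3.81 and 3.49 in PD1-low Th and 4.17 and 4.11 in naive cells (difference 2.66 ± 1.09 (SE), adjusted p = 0.348). Under the array set term Aurkb passed (adjusted p = 0.0337) and Plk1 did not (adjusted p = 0.0772). Kif23 read 9.52 and 8.54 in PD1-intermediate Th, 8.48 and 8.65 in PD1-low Th and 7.53 and 7.15 in naive cells, so that PD1-low Th lay above naive cells and overlapped with PD1-intermediate Th (difference 0.46 ± 0.46 (SE)). The overlap was not seen on its other kept probe set. That probe set read 6.21 and 5.15 in PD1-intermediate Th, 3.53 and 3.91 in PD1-low Th and 2.81 and 2.31 in naive cells. Spc25 read 10.66 and 9.87 in PD1-intermediate Th and 5.32 and 6.20 in PD1-low Th (difference 4.51 ± 0.45 (SE), adjusted p = 0.00081).

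PD1-low Th, which are CD44-high cells of lymph nodes, and naive cells of the spleen did not differ past the threshold on any gene of the list, and 0.0809% of all genes did. The organ and the CD44 gate change together in this comparison. By an unadjusted p under 0.05, 6 genes were higher in PD1-low Th (Tpx2, Ncapg, Kif22, Mki67, Kif23 and Racgap1; 3.86% of all genes) and 2 were lower (Spc25 and Cdc20; 0.455%). The 2 PD1-low arrays differed from each other, and they lie in sets 2 and 3. On PD1-low 1, 19 genes were at 5 or above, and 31 on PD1-low 2 (87.7% and 90.9% of all genes). The median difference of the list was 0.66, against 0.28 over all genes tested. Within set 2, where PD1-low 1 was compared with naive 2, the median was -0.0016, with 24 genes higher and 25 lower (51.6% and 47% of all genes). Kif22 had the smallest p, with 9.79 and 9.12 in PD1-low Th and 7.84 and 8.13 in naive cells, without overlap (1.47 ± 0.40 (SE), adjusted p = 0.501). The other kept probe sets of Kif22 did overlap, at 4.27 and 5.36 against 4.12 and 4.63, and at 5.98 and 7.28 against 5.48 and 6.48. Cdc20 read 5.65 and 6.23 against 6.66 and 6.81 and Spc25 5.32 and 6.20 against 6.86 and 7.0, both without overlap and lower in PD1-low Th, with differences of -0.79 ± 0.34 (SE) and -1.17 ± 0.45 (SE) (adjusted p = 0.958 for both).

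**Figure D4:**
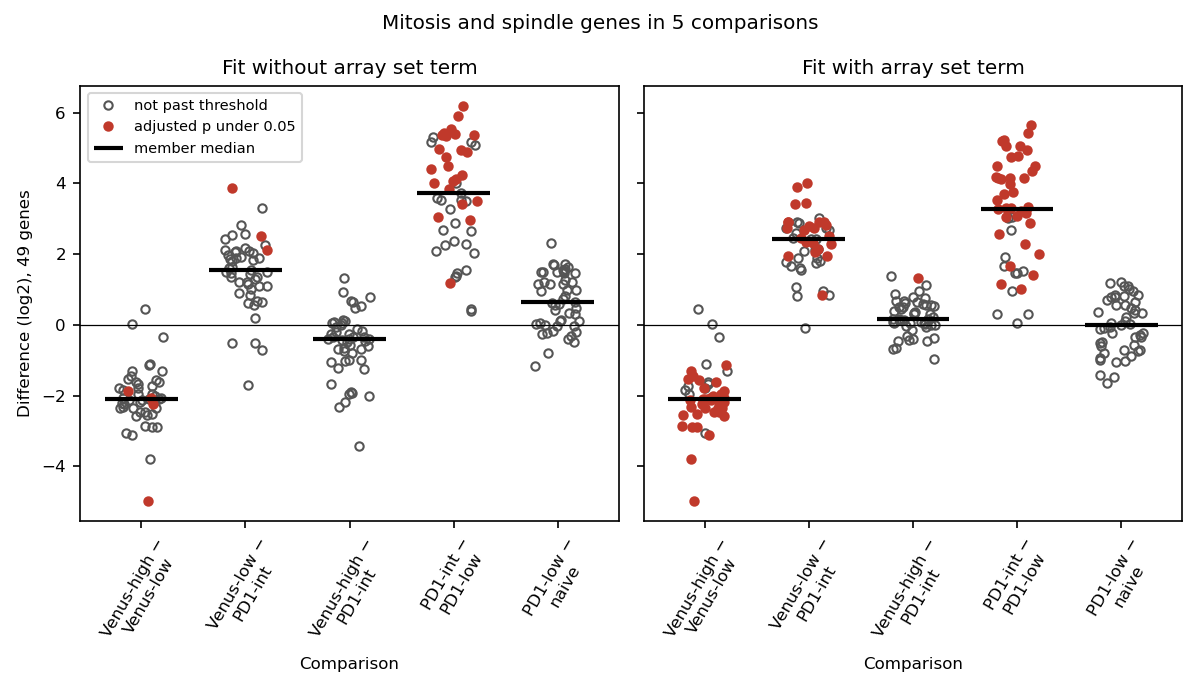
Differences (log2) of the 49 genes in the 5 comparisons, in the fit of 12 arrays without (left) and with (right) the array set term; each circle is 1 gene, filled red where the adjusted p is under 0.05, and the black line is the median. The medians on the left are -2.08, 1.55, -0.40, 3.73 and 0.66, and the red circles number 4, 3, 0, 24 and 0 on the left and 37, 23, 1, 37 and 0 on the right.

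Other genes of the cell cycle were read from lists that do not overlap with the 50. Of 72 other mitosis genes measured of 82 listed, 5 were lower in Venus-high than Venus-low Tfh past the threshold and 0 higher, where 0.879% of all genes were lower, and 45 were lower with the replicate block, where 6.05% of all genes were. Mybl2, a transcription factor of G2 genes, differed by -3.70 ± 0.52 (SE) (adjusted p = 0.0125), at least 8.17-fold lower. All Venus-high and PD1-intermediate arrays lay under 5 on Mybl2. Of the CXCR5+ groups only Venus-low Tfh, where it is high, carried it past the filter, so its test may not be separate from the filter. Cenpw, Cenpp and Ccnf passed with differences of -2.87, -2.71 and -2.42, and Cdca5, which falls outside the rule for named genes and was named after its values were seen, also passed. Of 29 S phase genes measured of 31 listed, 4 were lower in Venus-high Tfh (Cdc45, Pole, Chaf1b and Mcm3) and 21 with the block. All 29 had negative differences, with a median of -1.39, where 4728 of the 9893 genes tested had negative differences. Cdc45, a part of the replicative helicase, differed by -3.42 ± 0.56 (SE) (adjusted p = 0.0252). Of 11 cell cycle inhibitors measured of 12 listed, 0 passed, and 1 had an unadjusted p under 0.05 as higher and 1 as lower. Of all genes tested, 5.48% had an unadjusted p under 0.05 as lower. With the block Cdkn1a (p21) passed as higher and Cdkn2d as lower in Venus-high Tfh, and these are named after their values were seen, with differences of 2.20 and -0.92. With the block 4.06% of all genes passed as higher and 6.05% as lower. The array set term gave 1 inhibitor as higher (Cdkn1a) and 2 as lower (Cdkn2d and Klf2), where 7.47% of all genes were higher and 9.42% lower. Klf2, a factor of resting T cells, had pair differences of -1.82, -4.99 and -2.81 and was at least 5.09-fold lower in Venus-high Tfh (adjusted p = 0.0926, with the term 0.0209, with the block 0.0669).

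Between Venus-low Tfh and PD1-intermediate Th, Mybl2 was the 1 other mitosis gene past the threshold, higher in Venus-low Tfh by 3.72 ± 0.58 (SE) (adjusted p = 0.035). Both PD1-intermediate arrays lay under 5 on Mybl2, so the limit given above for its test applies here too. In this comparison 0 S phase genes passed (11 as higher by an unadjusted p under 0.05, with 2.9% of all genes). Under the array set term 33 other mitosis genes and 9 S phase genes passed, all higher, where 3.97% of all genes were. Between Venus-high Tfh and PD1-intermediate Th, 0 genes of either list passed. By an unadjusted p under 0.05, 1 other mitosis gene was higher and 3 lower, and 0 S phase genes were higher and 6 lower. Of all genes 3.7% were higher and 9.16% lower by that measure. Cdkn1a was higher in Venus-high Tfh than in PD1-intermediate Th by 4.92 ± 0.80 (SE) (adjusted p = 0.0134). Klf2 was lower there, at least 8.41-fold (difference -3.93 ± 0.81 (SE), adjusted p = 0.0414), and missed the threshold with the array set term (adjusted p = 0.0577). Between PD1-intermediate and PD1-low Th 19 other mitosis genes and 4 S phase genes passed, all higher in PD1-intermediate Th, where 3.07% of all genes were, among them Kntc1 at 6.33 ± 0.63 (SE) (adjusted p = 0.00081) and Gins2 at 5.39 ± 1.04 (SE) (adjusted p = 0.0227). Between PD1-low Th and naive cells 0 genes of the 3 lists passed. By an unadjusted p under 0.05, 3 other mitosis genes, 1 S phase gene and 0 inhibitors were higher in PD1-low Th, and 0 genes of the 3 lists lower. Of all genes 3.86% were higher and 0.455% lower by that measure.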

How the data were processed

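Each of 12 Affymetrix arrays came as deposited log2 values, 1 for each probe set. The authors made them with GCRMA, per the submitters' processing notes; its version, and whether all arrays were normalized together, are not given in the sources used here. Nothing was renormalized. Of 45101 probe sets, 34958 have 1 gene symbol in the platform annotation and stood for genes, 932 have several and 9211 none, and neither was used for a gene. A gene needed a probe set at log2 5 or more on at least 2 arrays, and its probe set with the highest mean was taken, which left 9893 genes. Groups come from the sample labels.

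The 5 groups were fitted together with limma 3.58.1 (lmFit and eBayes) in R 4.3.3, with 7 residual degrees of freedom, and p-values were adjusted over all 9893 genes with the Benjamini-Hochberg method (threshold 0.05). The fit with the array set as a term has 5 residual degrees of freedom. The fit with the replicate number as a block on the 6 Tfh arrays has 2. Same-numbered Tfh arrays deviated together from their group means over all genes (correlations of 0.914, 0.945 and 0.915, against -0.0649 to -0.664 for other pairs), so the numbers were taken as pairs; this comes from the data and the shared array set, not from a label. The array sets are 3 clusters of the arrays by their signal quantiles. The number of arrays limits the precision, with a median SE of 0.401 for a Tfh difference.

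All 50 listed genes are named; values on every array are given for 9 measured genes of known role fixed by name (Cdk1, Cdc20, Plk1, Tpx2, Aurkb, Bub1, Mki67, Top2a and Aunip) and for the 5 genes with the largest change past the threshold in each comparison. Of each other list, up to 4 genes past the threshold are named in a comparison, and any named beyond these (Cdca5, and Cdkn1a, Cdkn2d and Klf2 between the Tfh groups) were chosen after their values were seen. The members, lists and tests were chosen with earlier results of these data known. Promoters are from RefSeq (GRCm38.p6). The scripts were tested on simulated data. Alternatives were other filters, a floor, quantile normalization, another variance model, array weights, a random block, the replicate block, other choices of probe set, a fold threshold and leaving out each array.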

Additional observations from a re-analysis of the deposited data

How the results depend on the processing

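Of the counts of mitosis and spindle genes past the threshold, 0 between PD1-low Th and naive cells held under every alternative run. For the other comparisons the counts are given in the order Venus-high against Venus-low Tfh (4), Venus-low Tfh against PD1-intermediate Th (3), Venus-high Tfh against PD1-intermediate Th (0) and PD1-intermediate against PD1-low Th (24). With the array set as a term they were 37, 23, 1 and 37, and with the array set as a random block (consensus correlation 0.869) 39, 37, 1 and 40. The pairing of the Tfh arrays, with the replicate block on those 6 arrays, gave 34 for the first. With the replicate block over all 12 arrays they were 6, 11, 3 and 33, and 0 between PD1-low Th and naive cells. With array weights, whose fit gave a warning of no convergence, the first 3 were 29, 41 and 22. Quantile normalization gave 17 and 9 for the first 2, a floor at log2 5 gave 8 and 5, the mean of all kept probe sets 7 and 7, and no filter 2 and 1. With only the 2 groups compared in the fit, the first, the second and the last were 0, 0 and 1, with fewer arrays to estimate the spread. Leaving out each array in turn gave 1 to 5, 0 to 3, 0 and 13 to 25. Both alternatives chosen after seeing the data were these: without array set 2 the first, the second and the last were 0, 0 and 1, and with the array set term and displaced probe sets left out they were 38, 26, 1 (Venus-high Tfh against PD1-intermediate Th) and 38. The difference of Top2a changed sign for Venus-high minus Venus-low Tfh (-1.73) without Venus-high 2 (0.74; -4.54 to 0.74 over the arrays left out), and for Venus-low Tfh minus PD1-intermediate Th (-1.70) with the array set term (1.06), with it as a random block (0.94), with the mean of its probe sets (1.43), without Venus-low 2 (1.11; -3.31 to 1.11 over the arrays left out) and without array set 2 (1.11). Over the differences of single genes under all alternatives, 1133 of 1383 values kept direction and side of the threshold, 180 lost and 64 gained the call, and 6 turned; the cause was not tested. Signals under log2 5 limit what can be read in PD1-low Th and naive cells.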
